A study of Mus musculus with 20 samples.

Results

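The interleukin-1 (IL-1) family genes and their receptors were followed in whole mouse kidney after dosing with puberulic acid. The set holds 9 genes of the 55822 in the deposited table, found by gene symbol: Il1a, Il1b, Il1rn, Il33, Il18, Il1r1, Il1r2, Il1rap and Il1rl1. They were selected by hand from their values in this same comparison, so their own levels are given as a description with no test. All animals were male C57BL/6J mice of 8 weeks, from an inbred wild-type strain. The control group received phosphate-buffered saline (PBS), and the other group used here received puberulic acid at 1 mg per day, each once daily for 6 days, with organs taken on day 7. Puberulic acid is a tropolone made by Penicillium moulds. The series' design text calls the dosing oral, and the treatment protocol allows gavage or intraperitoneal injection without saying which kidney had which. Each group has 5 poly(A) RNA libraries from kidney, numbered replicates 1 to 5, and the labels do not tie a library to a mouse. Means are given ± SD over n = 5 libraries, and log2 fold changes ± SE. The study's 2 other groups received a normal or a toxic lot of the supplement Choleste-Help. The table's 10 other columns carry names that do not say which of these lots each holds, so they were not used here.

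IL-1 alpha and IL-1 beta are inflammatory cytokines that bind the receptor encoded by Il1r1, which then recruits the accessory chain encoded by Il1rap and signals through MyD88 to NF-kB. The pathway is held back by a receptor antagonist (Il1rn), which binds the same receptor without signalling, and by a decoy receptor (Il1r2), which binds ligand and has no signalling domain. IL-33, a nuclear alarmin, acts through ST2 (Il1rl1) and the same accessory chain, and IL-18 has its own receptor pair. In kidney, these cytokines are known from injured tubule, stroma and leukocytes.

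In the puberulic acid kidneys the antagonist's transcript stood far above those of both agonists. Set per length of transcript, Il1rn was at 51.8 ± 6.42 CPM per kb (CPM, normalised counts scaled to a common library size), Il1b at 6.45 ± 4.16 and Il1a at 0.299 ± 0.200 CPM per kb. In controls Il1rn was near the detection limit. Il33 and its receptor Il1rl1 were higher, by 5.91-fold and 15.1-fold, and Il1r1 and Il1rap were higher by 2.47-fold and 1.53-fold. Il18 lay in the same range in both groups. Library sizes were corrected by TMM, edgeR's trimmed-mean scaling. In whole-tissue RNA, fewer cells of a type and less RNA per cell cannot be told apart, nor can more cells and more RNA per cell.

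Library totals ran from 18409876 to 24705586 estimated counts. Of 16266 genes tested, 65.3% were called at an adjusted p-value under 0.05 (edgeR quasi-likelihood test, Benjamini-Hochberg adjustment over all genes tested), 34.2% higher and 31.1% lower with puberulic acid. With libraries scaled to total counts instead, 78.4% of the calls were higher in place of 52.4%, and the median log2 fold change of all genes moved from 0.05 to 0.56. The share of counts from mitochondrially encoded genes lay between 18.8% and 22.2% in control libraries and between 10.54% and 13.8% in puberulic acid libraries. It moves with every difference between the 2 groups described here, and its part was not tested beyond a fit without those genes. The defining genes of kidney tubule were present. The summed level of 6 proximal tubule markers was 7232 to 11749 CPM in controls and 284.0 to 917.4 CPM with puberulic acid, highest in replicate 1, and all 6 were called lower. Puberulic acid replicate 3 stood apart in adrenal markers, with 39.97 CPM summed over 5 genes against 4.86 to 6.84 CPM in the other 4 of its group. It also had the highest urothelium sum, at 56.6 CPM against 18.7 to 23.9 CPM. The 5 adrenal genes summed to 2.92 to 7.06 CPM in controls.

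Of the 9 genes, 8 passed the filter on low counts, and Il1a did not. Among these 8, 7 were called higher and none lower, where 34.2% of all genes were called higher. For the same 7, every puberulic acid value exceeded every control value, which held for 26.1% of all genes tested. Separation in either direction held for 50.1%. The median log2 fold change of the 8 was 3.10. The choice of the genes used this comparison, so nothing is read from these counts.

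**Figure D1:**
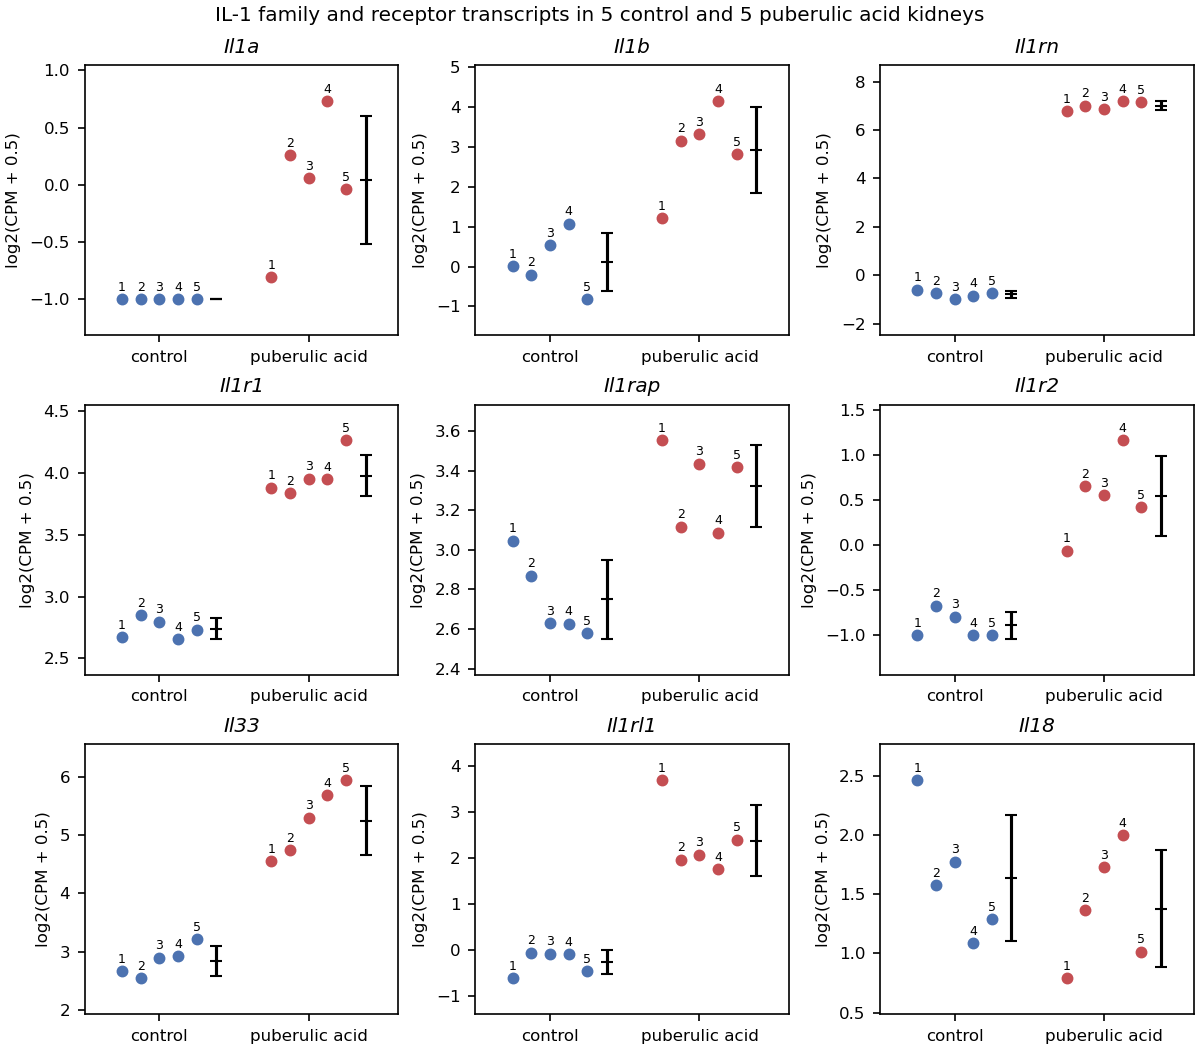
Level of each of the 9 genes in each kidney, as log2(CPM + 0.5), with controls in blue and puberulic acid in red, replicate numbers above the points, and the mean and SD of 5 beside each group. The axes differ between panels. The Il1rn points form tight groups far apart, the Il1b and Il1a points of puberulic acid replicate 1 lie nearest to the controls, Il1rl1 is highest in that same kidney, and the Il18 groups overlap.

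Il1rn (ENSMUSG00000026981) encodes the secreted and intracellular forms of the IL-1 receptor antagonist. Control replicates 1 to 5 held 0.163, 0.0971, 0, 0.0574 and 0.0930 CPM, from 7 counts in all. Puberulic acid replicates 1 to 5 held 109, 127, 117, 146 and 142 CPM. The groups were far apart, and the puberulic acid kidneys differed among themselves by a factor of 1.34 from lowest to highest. The mean went from 0.0821 ± 0.0597 to 128 ± 15.9 CPM, and the pooled ratio was 1537, with a 95% interval of 746 to 3824 (exact, counting error only). The width of that interval comes from the few control counts. The gene counts do not separate the secreted from the intracellular transcripts.

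Il1b (ENSMUSG00000027398), the agonist that inflammasome caspase-1 cleaves to its active form, had control levels of 0.513, 0.369, 0.949, 1.62 and 0.0646 CPM. The puberulic acid kidneys had 1.83, 8.44, 9.57, 17.3 and 6.56 CPM. Replicate 1 lay just above the highest control, and replicate 4 was 9.50 times replicate 1. The means were 0.702 ± 0.602 and 8.75 ± 5.64 CPM, and the fitted log2 fold change was 3.63 ± 0.66, a fold of 12.4.

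Il1a (ENSMUSG00000027399), the agonist that is active without cleavage and is released from dying cells, had 0 counts in all 5 control libraries. In replicates 1 to 5 of puberulic acid it had 0.0731, 0.699, 0.542, 1.16 and 0.476 CPM, or 74 counts in all. Replicate 1 was again lowest and replicate 4 highest. Taking 3 counts over the control group as the limit that a count of 0 allows, the level was at least 15.9-fold higher with puberulic acid. In single control libraries, 3 counts equal 0.158 to 0.195 CPM.

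Within each kidney the counts of antagonist and agonists can be set against each other without regard to library scaling. Il1rn per Il1a plus Il1b was 0.318, 0.263, 0, 0.0355 and 1.44 in controls, and these ratios rest on few reads. With puberulic acid the ratio was 57.5, 13.9, 11.5, 7.91 and 20.1. Every puberulic acid kidney lay above every control, and replicate 1 stood highest. That kidney had the lowest Il1a, Il1b and Il1rn of its group, with the agonists far below the other kidneys and Il1rn close to them. Antagonist reads made up 88.8% to 98.3% of the reads of the 3 genes with puberulic acid and 0% to 59.0% in controls. The ratio also holds the different transcript lengths, so its change between kidneys can be read and its absolute size cannot.

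**Figure D2:**
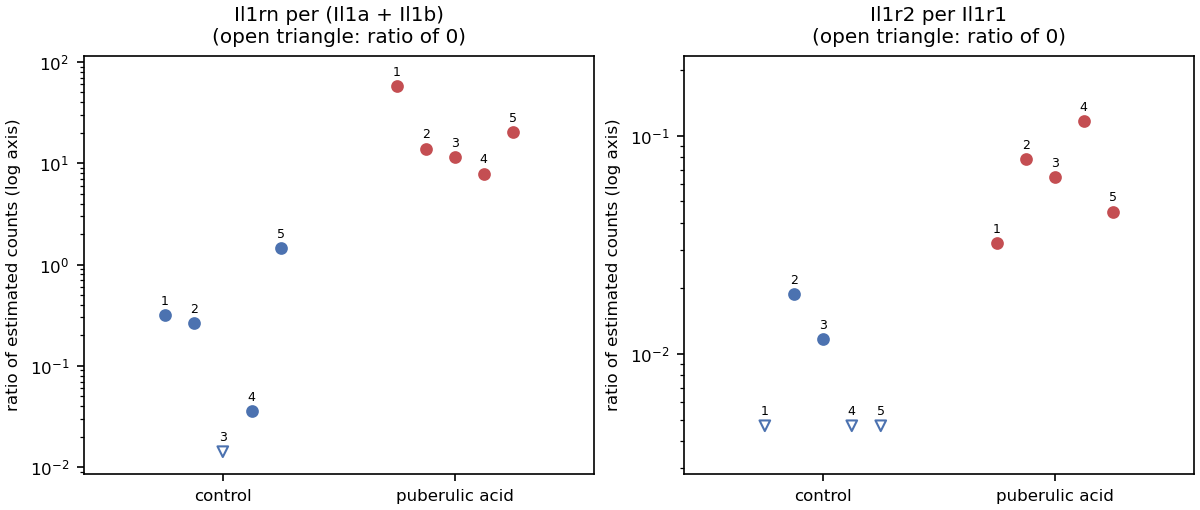
Ratios of estimated counts within each kidney on a log axis, for Il1rn per Il1a plus Il1b (left) and Il1r2 per Il1r1 (right), with controls in blue and puberulic acid in red and replicate numbers above the points. Open triangles at the bottom mark ratios of 0. In both panels all 5 puberulic acid kidneys lie above all 5 controls, and replicate 1 is highest on the left and lowest of its group on the right.

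The promoters of these 3 genes are shown because the genes act on 1 receptor and were higher in the same kidneys to very different extents. Each sequence is the 250 bases before the start site in RefSeq's GRCm38.p6 table, whereas the processing notes of the counts name GRCm39. All 9 genes matched this table, with 14 windows of 300 bases (250 before and 50 after the start). Il1rn has 3 listed starts, of which the most upstream is shown. Capitals mark AP-1 motifs (TGACTCA or TGAGTCA, reverse complements of each other) and TATA boxes (TATAAA on either strand).

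Il1rn, chr2:24336610-24336859, + strand: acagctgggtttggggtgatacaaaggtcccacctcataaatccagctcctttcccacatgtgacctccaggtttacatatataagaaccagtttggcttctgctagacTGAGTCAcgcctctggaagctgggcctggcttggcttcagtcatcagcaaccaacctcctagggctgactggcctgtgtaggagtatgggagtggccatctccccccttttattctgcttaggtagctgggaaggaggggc

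Il1a, chr2:129309973-129310222, - strand: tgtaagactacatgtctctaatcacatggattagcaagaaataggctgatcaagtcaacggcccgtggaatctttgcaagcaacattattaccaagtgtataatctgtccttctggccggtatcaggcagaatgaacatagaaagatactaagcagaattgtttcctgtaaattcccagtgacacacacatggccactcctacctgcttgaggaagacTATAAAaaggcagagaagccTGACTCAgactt

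Il1b, chr2:129371140-129371389, - strand: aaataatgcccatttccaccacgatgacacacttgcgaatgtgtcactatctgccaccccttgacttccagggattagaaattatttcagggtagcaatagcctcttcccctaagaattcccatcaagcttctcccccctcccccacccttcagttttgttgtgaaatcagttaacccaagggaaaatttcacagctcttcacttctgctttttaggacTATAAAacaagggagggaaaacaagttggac

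The AP-1 match began at position -141 in the Il1rn window and at -12 in the Il1a window, and these were the only AP-1 matches in the 14 windows. Of all 32851 windows in the table, 5.20% held one. A TATA box began at -32 in Il1a and at -31 in Il1b, and 6 of the 14 windows and 13.6% of all windows held one. The NF-kB consensus, also searched on both strands, was found in 1 of the 14, a second Il1r1 window, and in 4.51% of all windows. These are matches of letters and no evidence of binding.

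Il1r1 (ENSMUSG00000026072), the signalling receptor of both agonists, had 5.87, 6.71, 6.45, 5.81 and 6.14 CPM in controls. Levels with puberulic acid were 14.2, 13.8, 14.995, 14.953 and 18.7 CPM, highest in replicate 5. The groups were well separated and each varied little, with means of 6.20 ± 0.384 and 15.3 ± 1.94 CPM and a log2 fold change of 1.31 ± 0.12.

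Il1rap (ENSMUSG00000022514), the accessory chain shared by the IL-1, IL-33 and IL-36 receptors, had 7.77, 6.81, 5.69, 5.68 and 5.48 CPM in controls. The treated kidneys had 11.2, 8.18, 10.3, 7.996 and 10.2 CPM. The lowest puberulic acid kidney, replicate 4, lay close above control replicate 1. The log2 fold change was 0.61 ± 0.15, and it was 1.12 with total-count scaling.

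Il1r2 (ENSMUSG00000026073), the decoy receptor, had 0, 0.126, 0.0756, 0 and 0 CPM in controls, from 4 counts. Under puberulic acid the values were 0.458, 1.07, 0.970, 1.74 and 0.839 CPM, from 129 counts. The order of the kidneys matched that of Il1b at both ends, with replicate 1 lowest and replicate 4 highest. The pooled ratio was 20.8, with a 95% interval of 7.93 to 77.5 (exact, counting error only). Il1r2 per Il1r1 was at most 0.0188 in controls and lay between 0.0321 and 0.116 in the puberulic acid kidneys.

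Il33 (ENSMUSG00000024810), the alarmin, had 5.83, 5.32, 6.95, 7.06 and 8.76 CPM in controls. With puberulic acid it had 23.0, 26.3, 38.8, 50.8 and 61.0 CPM. All puberulic acid kidneys were above all controls, with replicates 1 and 2 lowest. Means were 6.78 ± 1.33 and 39.97 ± 16.1 CPM, and the log2 fold change was 2.56 ± 0.27. The summed level of 6 fibroblast and pericyte markers had the same 2 kidneys lowest, at 414.9 and 541.6 CPM against 1070 to 1424 CPM in replicates 3 to 5 and 108.4 to 158.4 CPM in controls. Of those 6 markers, 5 were called higher. Most of the sum was Col1a1 and Col1a2, and not every marker had this order, since Pdgfra was at 27.2 CPM in replicate 1 and 18.7 and 16.3 CPM in replicates 3 and 4. Their part in the Il33 levels was not tested.

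Il1rl1 (ENSMUSG00000026069), which encodes both the membrane ST2 receptor and its soluble decoy form, had 0.150, 0.461, 0.443, 0.437 and 0.228 CPM in controls. In the puberulic acid group it had 12.5, 3.41, 3.73, 2.89 and 4.78 CPM. Replicate 1, the lowest kidney for Il1a, Il1b, Il1rn, Il1r2, Il33 and Il18, was by far the highest here, at 4.33 times replicate 4. The log2 fold change was 3.91 ± 0.49, and 3.33 without puberulic acid replicate 1. The table has 1 value per gene and does not separate the membrane and soluble transcripts.

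Il1rl1 per Il33, a ratio chosen after the values had been seen, was 0.545 in puberulic acid replicate 1 and 0.0570 to 0.130 in replicates 2 to 5. In controls it was 0.0257 to 0.0866, overlapping the lower part of the puberulic acid range. ST2 is known from mast cells, innate lymphoid cells and regulatory T cells. The 7 mast cell and basophil markers summed to 0.578 to 1.38 CPM in controls and 0.535 to 1.89 CPM with puberulic acid, with 0.535 CPM in replicate 1. Most of that sum was Ms4a2, at 0.742 and 0.611 CPM on average, which was not called and was the only one tested. Mcpt4 and Fcer1a were at 0 in all 10 libraries, while the basophil gene Mcpt8 went from 0 counts in controls to 36 counts, at least 7.74-fold higher taking 3 counts over the control group. Tpsb2 went from 0 to 8 counts. The 8 T cell and innate lymphoid cell markers summed to 26.01 to 31.26 CPM in controls and 17.3 to 33.0 CPM with puberulic acid. The sum was 19.4 CPM in puberulic acid replicate 1. Most of it was Gata3 and Il17rb in both groups, with Il17rb at 7.69 and 6.61 CPM on average, so the sum says little about the other markers. Of 7 tested, Cd4, Il7r and Cd3d rose, by 2.47, 1.57 and 1.276 on the log2 scale. Gata3, the most abundant, fell from 17.4 to 9.75 CPM. Cd3e, Cd8a and Il17rb were not called, with log2 fold changes of 0.35, 0.20 and -0.22. The regulatory T cell gene Foxp3 was too low to be tested. The part of these cells in the Il1rl1 levels was not tested.

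Il18 (ENSMUSG00000039217), made as an inactive precursor by tubule cells and macrophages, had 5.03, 2.49, 2.93, 1.63 and 1.94 CPM in controls. With dosing it had 1.23, 2.08, 2.81, 3.50 and 1.52 CPM. The ranges overlapped, and control replicate 1 was the highest of all 10. The log2 fold change was -0.34 ± 0.36, smaller than its error. It was 0.17 with total-count scaling and -0.03 without control replicate 1, so that its sign depends on the scaling.

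Set per length of the longest protein-coding transcript, taken from the GENCODE M21 models of GRCm38, Il18 and Il33 had the highest control levels, at 3.17 ± 1.52 and 2.67 ± 0.522 CPM per kb. Il1rap and Il1r1 followed at 1.39 ± 0.217 and 1.07 ± 0.0660 CPM per kb, and Il1b was at 0.518 CPM per kb. Il1rl1, Il1rn and Il1r2 were at 0.0648, 0.0332 and 0.0284 CPM per kb, and Il1a was at 0. With puberulic acid Il1rn stood first, above Il33 at 15.7 ± 6.33 CPM per kb. Il1b overlapped within its SD both Il33 and the next gene, Il1r1. Il1r1 was at 2.63 ± 0.334, Il18 at 2.52 ± 1.06 and Il1rap at 2.12 ± 0.315 CPM per kb, which did not differ beyond their spread. Il1rl1 and Il1r2 were at 1.03 and 0.716 CPM per kb, and Il1a was lowest. With the shortest protein-coding model of each gene, many of them fragments, Il1rn would be at 399.4 and Il33 at 108.0 CPM per kb with puberulic acid, and control Il33 at 18.3 would stand above Il18 at 3.99. Il1rl1, at 14.6 CPM per kb with puberulic acid, would then stand above Il1b. Among neighbours in the control order, the SDs of Il18 and Il33 overlapped, as did those of Il1b and Il1rl1, of Il1rl1 and Il1rn, and of Il1rn and Il1r2.

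The 5 puberulic acid kidneys fell into different orders for different genes. Replicate 4 was highest for Il1a, Il1b, Il1rn, Il1r2 and Il18, and replicate 5 for Il1r1 and Il33. Replicate 1 was highest for Il1rap and Il1rl1 and lowest for Il1a, Il1b, Il1rn, Il1r2, Il33 and Il18. The summed level of 12 macrophage and monocyte markers was lowest in replicate 1 and highest in replicate 4, as for Il1b, at 261.3, 521.2, 810.1, 900.5 and 700.6 CPM in replicates 1 to 5, against 107.7 to 246.0 CPM in controls. Of those 12, 10 were called higher. The 6 dendritic cell markers summed to 25.7, 42.1, 55.8, 82.3 and 54.5 CPM, against 9.83 to 19.5 CPM in controls. Of these 6, 4 were called higher, and Xcr1 and Clec9a were not called. The order of the sum was that of Itgax, at 8.93, 26.7, 37.0, 59.1 and 28.6 CPM. Not every marker had it, since Zbtb46 and Xcr1 were lowest in replicate 2, and Xcr1, Clec9a and Cd209a were highest in replicate 5. The 10 neutrophil markers summed to 1.2804 to 3.90 CPM in controls and 3.84 to 7.88 CPM with puberulic acid, highest in replicate 4. That rank came from Ltf, at 2.31 CPM in that kidney against 0.172 to 0.592 CPM in the others of its group. Of 4 tested, the receptor genes Csf3r and Cxcr2 rose, by 1.66 and 1.87 on the log2 scale, and S100a9 and Ltf were not called. Of those too low to be tested, S100a8 had 12 counts in controls and 45 with puberulic acid (pooled ratio 2.42, 95% interval 1.26 to 5.02 for counting error only), and Retnlg had 0 and 10. Ly6g was at 0 in all 10 libraries, and Mpo, Camp and Ngp had 3 or fewer counts in each group. The part of these cells in the levels of the 9 genes was not tested.

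**Figure D3:**
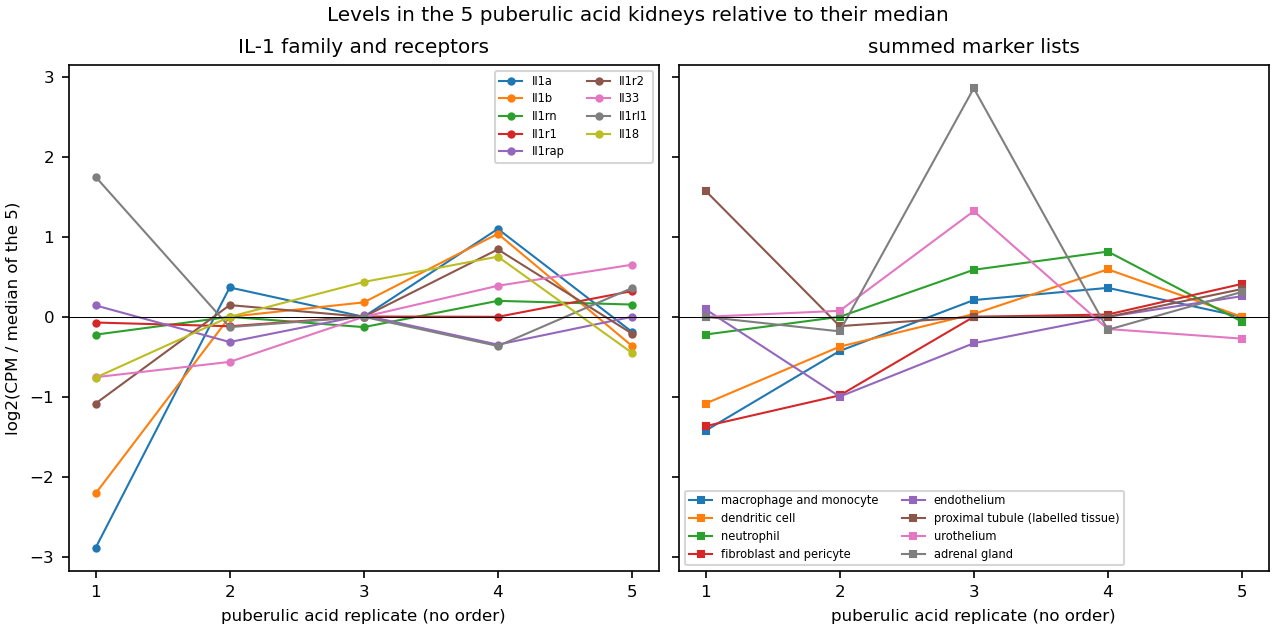
Level in each of the 5 puberulic acid kidneys relative to the median of the 5, on a log2 scale, for the 9 genes (left) and for the summed CPM of 8 marker lists (right). Replicate numbers carry no order, and lines only connect points of 1 gene or list. Il1a, Il1b and the macrophage and dendritic cell sums are lowest in replicate 1 and highest in replicate 4. The order of the dendritic cell sum is that of Itgax. Il1rl1 and the proximal tubule sum are highest in replicate 1, and the adrenal and urothelium sums are highest in replicate 3.

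The genes with the most similar profiles over the 10 kidneys were found by the smallest root mean square difference of centred log2(CPM + 0.5), among 13287 genes. This measure mostly matches the size of the group difference. For Il1rn they were Sprr1a, a cornified envelope gene (0.396), and Fosl1, an AP-1 subunit gene (0.4998). For Il1b they were Pilra, a myeloid inhibitory receptor gene (0.369), and Bcl2a1a (0.390), whose near-identical copies make its value uncertain. For Il1rl1 the nearest was Il5ra, the IL-5 receptor gene (0.215), with 2.62 to 4.23 CPM in controls and 47.2, 16.9, 16.2, 14.7 and 21.8 CPM with puberulic acid. Il5ra shared with Il1rl1 the high value of replicate 1, and Sema4f came next (0.315). For Il33 they were Axl (0.171) and Lrrc32 (0.191), and for Il1r1 they were Calu (0.0887) and Adamts9 (0.102). For Il1rap they were Pafah1b1 (0.0865) and Mef2a (0.101), and for Il1r2, whose low level compresses the scale, Smim3 (0.141) and Ywhah (0.148). For Il18 they were Plgrkt (0.265) and, nearest, Parp10 (0.258), with 89.4 CPM in control replicate 1 and 29.7 to 44.8 CPM in the other controls.

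Beyond the 9 genes, 6 lists of 76 further IL-1 pathway genes were examined. They too were drawn up with earlier results of these data known. Of 66 genes tested, 54 were called higher and 5 lower, beside 34.2% and 31.1% of all genes. The median log2 fold change of each list stands beside 0.05 for all genes tested, and no list was tested as a set.

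The IL-36 cytokines, a further branch of the family made by epithelia, rose. Il36a had 0 counts in all controls and 3.29, 6.08, 5.79, 5.86 and 6.11 CPM in the puberulic acid kidneys, which is at least 151-fold higher taking 3 counts over the control group (edgeR adjusted p = 1.57e-06). Il36g rose from 0.384 ± 0.0959 to 11.1 ± 1.58 CPM, with a log2 fold change of 4.83 ± 0.21 (edgeR adjusted p = 9.10e-09). Il36b, also at 0 in controls, reached 0.786 ± 0.164 CPM. The IL-36 receptor antagonist gene Il36rn was too low to be tested, with 0.135 to 0.664 CPM in controls. With puberulic acid it was at 1.08 CPM in replicate 1 and at 0 to 0.0877 CPM in replicates 2 to 5. The 6 markers of squamous epithelium summed to 5.08 to 11.8 CPM in controls and 24.6 to 33.0 CPM with puberulic acid, and most of the difference was Sprr1b, with 0 control counts and a mean of 18.5 CPM with puberulic acid. Of 3 tested, Sprr1b and Lor rose, Krt10 was not called at 7.52 and 6.89 CPM, and Krt1, Krt14 and Krt6a were too low to be tested. Of 5 urothelium markers, the basal keratin gene Krt5 rose by 6.07 on the log2 scale, and Upk1a, Upk1b, Upk2 and Upk3a were not called. Their part in the IL-36 levels was not tested. In the list of other ligands and binding proteins, 3 of the 4 tested genes were higher and none lower, with a median log2 fold change of 5.97, or 4.65 with Il36a and Il36b at the lower bounds of their folds.

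The fourth was Il18bp, which encodes a secreted protein that neutralizes IL-18. It had 53.4 CPM in control replicate 1, 2.80 to 3.58 CPM in the other controls and 5.00 to 13.5 CPM with puberulic acid. Control replicate 1 alone set the direction. The log2 fold change was -0.57 ± 0.79 (edgeR adjusted p = 0.547) with all samples and 1.43 without that library, where it was called higher. The same control held the highest Il18 (5.03 CPM), Il18rap (0.930 CPM), Nlrp3 (0.805 CPM), Aim2 (1.75 CPM) and Gsdmd (11.7 CPM) of its group.

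Among the other receptors of the family, 3 of 4 tested genes were higher and 1 lower. Il18rap, the accessory chain of the IL-18 receptor, rose from 0.347 ± 0.337 to 12.5 ± 0.752 CPM (log2 fold change 5.11 ± 0.38, edgeR adjusted p = 4.13e-07), and the log2 fold change was 5.84 without control replicate 1. Its partner Il18r1 rose from 0.578 ± 0.392 to 1.65 ± 0.666 CPM, with overlapping ranges. Il1rl2, the IL-36 receptor, rose from 1.06 ± 0.318 to 5.53 ± 1.40 CPM (log2 fold change 2.39 ± 0.27). Sigirr, an inhibitory member of the family, fell from 85.1 ± 10.4 to 27.8 ± 4.04 CPM (log2 fold change -1.61 ± 0.12, edgeR adjusted p = 4.46e-07). The median of this list was 1.95.

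Of 13 tested genes for inflammasomes and ligand processing, 9 were higher and 1, Nek7, was lower, with a median log2 fold change of 1.41. Nek7 (log2 fold change -0.29) was not called with upper-quartile scaling (-0.20) or total-count scaling (0.22). Nlrp3, an inflammasome sensor, rose from 0.371 ± 0.251 to 3.99 ± 2.09 CPM (log2 fold change 3.41 ± 0.49, edgeR adjusted p = 7.12e-05). It was 1.47 CPM in puberulic acid replicate 1 and 7.22 CPM in replicate 4, the same ends as for Il1b. The adaptor Pycard rose by 1.41 ± 0.21 and the protease Casp4 by 2.12 ± 0.26 on the log2 scale. The sensor genes Nlrp1b, whose reads may be shared with its copy Nlrp1a, and Aim2 rose by 1.44 and 1.47, both with overlapping ranges. Aim2 was not called without control replicate 2, or without puberulic acid replicate 4 or 5, where its log2 fold change was 1.21 to 1.31. Prtn3, a neutrophil protease that can cleave IL-1 family precursors, rose from 5 counts in controls to 134 counts (pooled ratio 17.3, 95% interval 7.23 to 54.1 for counting error only), while the neutrophil proteases Elane and Ctsg were at 0 in every kidney. Casp1, which cleaves the IL-1 beta and IL-18 precursors, rose from 1.06 ± 0.639 to 2.76 ± 1.33 CPM, with overlapping ranges (edgeR adjusted p = 0.0175), and was not called without puberulic acid replicate 4 (log2 fold change 1.07). Txnip was at 311 ± 91.3 and 351 ± 33.6 CPM and was not called, but total-count scaling called it higher (log2 fold change 0.68).

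Of 14 tested genes of receptor-proximal signalling, 10 were higher and 2 lower, with a median log2 fold change of 0.39. Of the 10, Map3k8, Map3k7 and Peli1 lost their call in 8, 6 and 5 of the 10 fits that left out 1 library. The adaptor Myd88 rose from 18.6 ± 1.24 to 44.5 ± 8.60 CPM (log2 fold change 1.26 ± 0.13, edgeR adjusted p = 5.21e-06). Irak3, an inhibitory kinase of the IRAK family, rose from 1.53 ± 0.945 to 5.07 ± 0.463 CPM (log2 fold change 1.74 ± 0.37). Irak1 and Tab1 fell by 0.62 and 0.66 on the log2 scale. With total-count scaling 12 were called higher and neither of these was called lower. Tollip (log2 fold change 0.17) and Irak2 (-0.06) were not called, but total-count scaling called both higher, at 0.68 and 0.45. Tollip was also called higher with upper-quartile scaling (0.27), the filter of 1 CPM in 5 samples (0.18) and without control replicate 2 (0.20).

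Of 14 NF-kB genes, 12 were higher and 1 lower, with a median of 0.98. Nfkb2 rose from 13.9 ± 1.22 to 76.2 ± 5.83 CPM (log2 fold change 2.45 ± 0.09, edgeR adjusted p = 3.17e-09). Tnfaip3, Nfkbiz and Nfkbie, known NF-kB target genes that restrain or tune it, rose by 2.43, 2.36 and 1.73 on the log2 scale, and the feedback gene Nfkbia by 0.55. The call of Zc3h12a, a further feedback gene, was borderline (log2 fold change 0.58, edgeR adjusted p = 0.0496), and was lost in 9 of the 10 fits that left out 1 library and in 4 of the other alternatives. The subunit genes Relb and Rel rose by 2.14 and 2.02. Chuk, the gene of the kinase IKK-alpha, fell from 170 ± 31.0 to 71.5 ± 8.01 CPM (log2 fold change -1.25 ± 0.13). Nfkbib was not called (log2 fold change 0.20, edgeR adjusted p = 0.0504), but was called higher with upper-quartile scaling (0.29), total-count scaling (0.71), the filter of 1 CPM in 5 samples (0.21) and without control replicate 4 (0.23).

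All 17 tested genes of the list of IL-1-inducible outputs rose, with a median log2 fold change of 5.56, also with Il6 at its bound, and Csf2, Csf3 and Saa3 were too low to be tested. Nos2 was not called without control replicate 3, or without puberulic acid replicate 4 or 5 (log2 fold change 0.98 to 1.13). Other stimuli induce these genes too. Il6 had 0 counts in controls and 1.02, 1.88, 2.79, 5.07 and 2.05 CPM in the puberulic acid kidneys, which is at least 69.9-fold higher on the same basis. The chemokine genes Ccl7 and Cxcl2 had 2 control counts each. Their pooled ratios were 397 (95% interval 110 to 3285) and 198 (95% interval 54.5 to 1636), exact and covering counting error only. Ccl2 rose by 6.63 ± 0.41 and the cytokine gene Lif by 6.08 ± 0.31 on the log2 scale, and Lcn2, an iron-binding injury marker, by 7.36 ± 0.55. Replicate 1 was the lowest of the puberulic acid kidneys for Il6, Ccl7, Cxcl2, Ccl2, Lif and Lcn2, as for Il1b, and replicate 4 was the highest for Il6, Ccl7 and Ccl2.

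**Figure D4:**
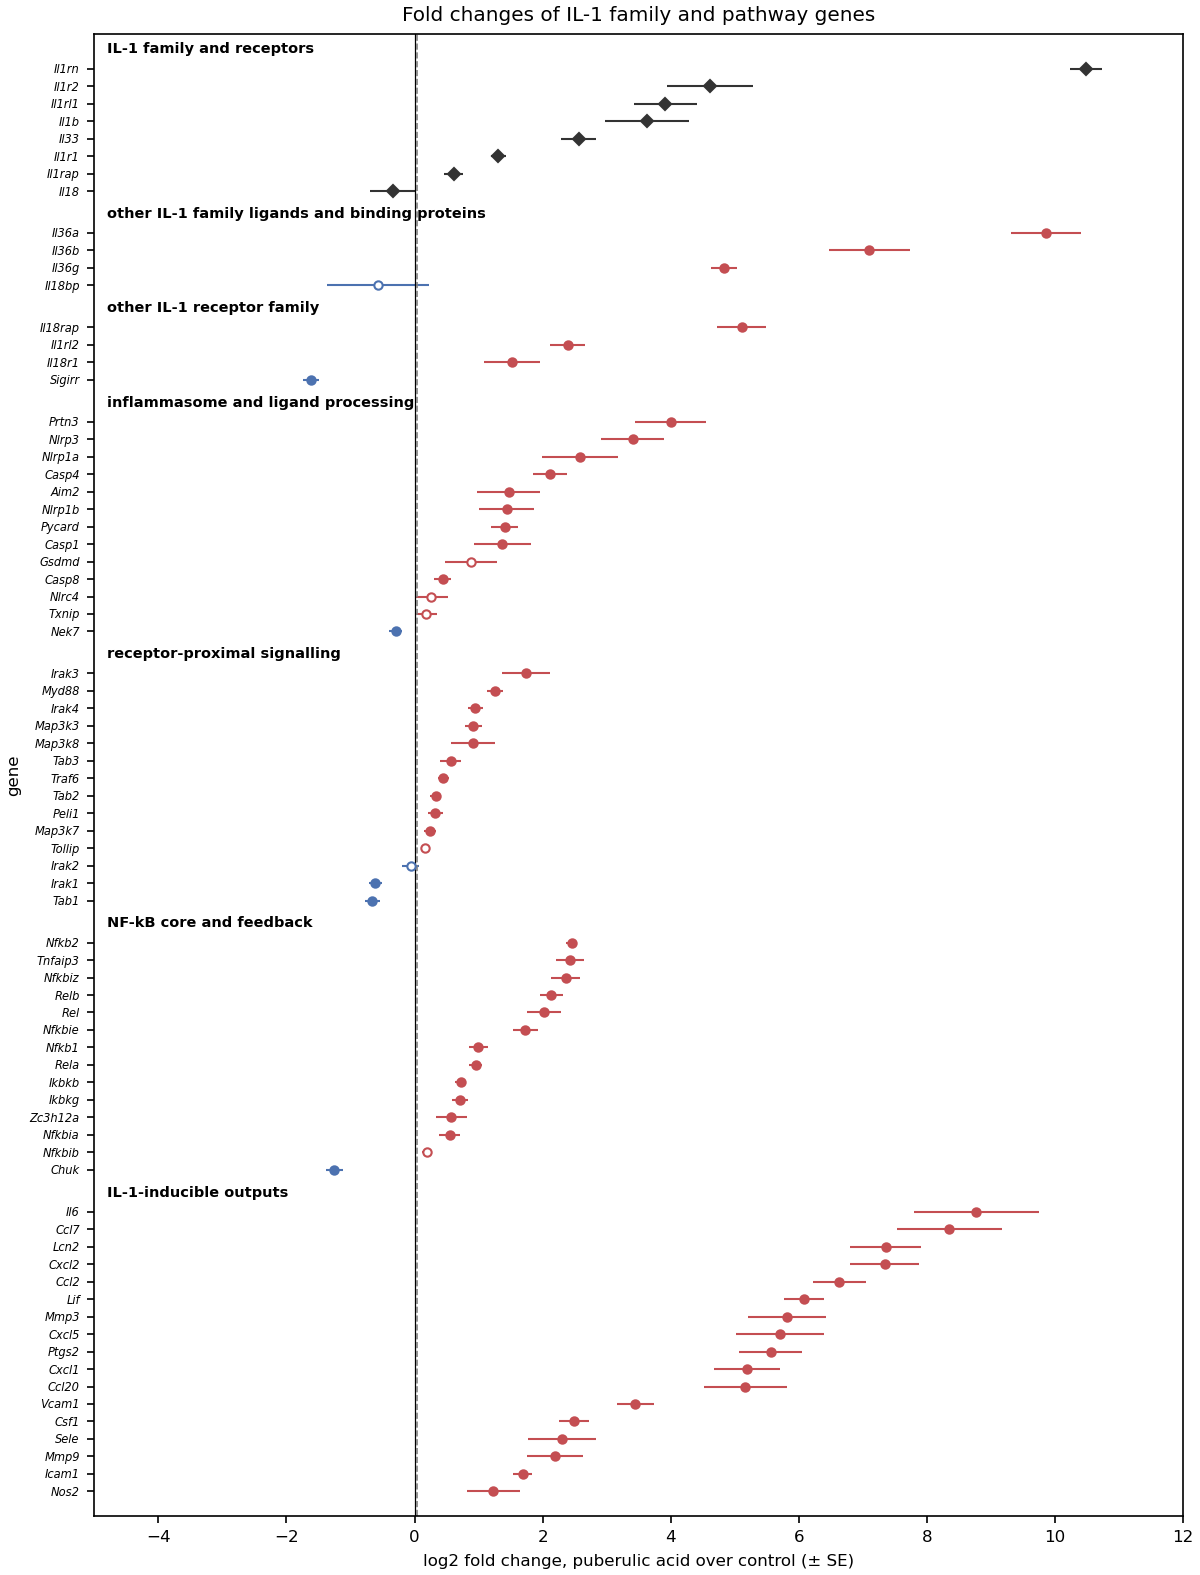
Log2 fold change of puberulic acid over control with its SE (n = 5 in each group) for 8 of the 9 genes (diamonds, no test) and for the 66 tested genes of 6 pathway lists (filled circles, called; open circles, not called; red, higher; blue, lower). Il1a was too low for the fit. The dashed line is the median of all genes tested, 0.05. The values of Il1rn, Il1r2, Il36a, Il36b, Prtn3, Il6, Ccl7, Cxcl2, Cxcl5, Ccl20 and Mmp3, each with 7 or fewer control counts in all, depend on the fit. The IL-36 genes lie far to the right, the output genes spread from Nos2 to Il6 on the right, the proximal signalling genes run from Tab1 at -0.66 to Irak3 at 1.74, and Sigirr and Chuk lie farthest to the left.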

How the data were processed

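Poly(A) RNA of mouse kidney was sequenced, and the authors deposited 1 table of estimated counts per gene, not normalized, from directional libraries. The submitters' processing notes name fastp 0.22.0, FastQC 0.12.1, MultiQC 1.28, Salmon 1.10.3, DESeq2 and GRCm39 without giving their roles. How transcripts were summed to genes is not given in the sources used here. Symbols were found for 51344 of 55822 identifiers, holding 99.3% of the counts, and the IL-36 genes were matched through older symbols. The 10 columns whose names do not give their lot were not used.

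Counts were rounded, filtered with filterByExpr, scaled with TMM and fitted with edgeR 4.0.16 (quasi-likelihood test, limma 3.58.1, R 4.3.3) on the 5 control and 5 puberulic acid samples, with Benjamini-Hochberg adjustment over 16266 genes. Each standard error was derived from the fold change and its F statistic. The fit was tested on simulated data. p-values measure the spread between these samples, which may be technical. Intervals are Clopper-Pearson and, like the limit of 3 counts, cover counting error only. The 9 genes and all lists were chosen with earlier results of these data known. Named in each list were up to 6 called genes with the largest fold change (at least 1 on the log2 scale and 1 CPM), and up to 2 genes not called with at least 10 CPM. A few others (Il36b, Il36rn, Casp1, Nek7, Nfkbia, Zc3h12a, Map3k7, Map3k8, Peli1, Nos2, Gsdmd, Irak1, Tab1, Chuk, Elane, Ctsg and the output genes too low to be tested) were named after their values were seen. Alternatives were 3 other scalings, 2 other filters, DESeq2 1.42.0, a replicate block, leaving out mitochondrially encoded genes and leaving out each sample. Python analyses used numpy 2.4.6, scipy 1.17.1 and pandas 2.3.3.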

Additional observations from a re-analysis of the deposited data

Results flagged for a closer look

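Within each group of 5, the highest and lowest values were checked for distance from the next value, with 0.71 of the group's range as the limit. Chance gives such a sample in about 1 of 20 groups, or about 4.05 of the 81 searched if they were independent, and 8 were found.

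Puberulic acid replicate 1 was set apart 3 times. It had the highest Il1rl1 (12.5 CPM, gap 0.804 of the range), the lowest Il36a (3.29 CPM, gap 0.886) and the highest ratio of Il1rn to Il1a plus Il1b (57.5, gap 0.753). Control replicate 1 was also set apart 3 times, with the highest Il18bp (53.4 CPM, gap 0.985), Il18rap (0.930 CPM, gap 0.787) and Nlrp3 (0.805 CPM, gap 0.772) of the controls. In puberulic acid replicate 5, Il1r1 was the highest of its group at 18.7 CPM (gap 0.752). In control replicate 5 the ratio of Il1rn to Il1a plus Il1b was 1.44 (gap 0.779), from under 3 counts of either kind.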

How the results depend on the processing

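With total-count scaling the log2 fold changes were 10.98 for Il1rn, 1.82 for Il1r1, 5.07 for Il1r2, 1.12 for Il1rap and 3.08 for Il33, and 9179 genes were called higher and 2526 lower in place of 5564 and 5058. The median of all genes moved by a similar amount. The count of inflammasome and processing genes called lower went from 1 to 0 with upper-quartile and total-count scaling, and that of receptor-proximal genes from 2 to 0 with total-count scaling. Irak2 turned to 0.45 with total-count scaling, and Il18bp ranged from -0.84 to 1.43 when single samples were left out, with 1.43 without control replicate 1 (0.78 with the replicate block). Leaving out single samples gave 10.19 to 10.91 for Il1rn, 3.19 to 4.17 for Il1b, 4.29 to 5.57 for Il1r2 (4.61 with all, 5.57 without control replicate 2), 3.33 to 4.04 for Il1rl1 and -0.60 to -0.03 for Il18. Inflammasome genes called higher numbered 7 to 11 in these fits, and 6 with the filter of 1 CPM in 5 samples. Il1a was called higher only where the filter let it in. Same-numbered samples did not deviate together (correlations from -0.175 to 0.033), and with the replicate block 10325 genes were called in place of 10622, with a log2 fold change of 3.69 for Il1rl1, 7 inflammasome genes higher in place of 9, and Aim2 and Casp1 not called (log2 fold changes 1.53 and 1.38). Depth limits Il1a, Il1r2 and the control values of Il1rn.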
